A study of Mus musculus with 30 samples.

Results

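Wild type mouse embryonic fibroblasts (MEFs) that received the cytokine TNFα at 100 ng/ml for 45 min were measured on 2 of the 30 arrays of the series, 1 for each of 2 independent experiments. They were chosen by their sample titles, which name TNFα without an inhibitor. The MEFs are immortalised lines in exponential growth, and no source used here says whether the p38α-/- MEFs, which lack the stress kinase p38α, came from 1 clone. On each array the treated sample was labelled with Cy5 and set against Cy3-labelled RNA pooled from 2 cultures of untreated wild type MEFs, without a dye swap. In wild type MEFs, TNFα was set against the pool itself, against 100 mM NaCl for 45 min and against anisomycin, an inhibitor of protein synthesis (25 ng/ml, 45 min), with 2 arrays in each group. TNFα after the p38 inhibitor SB203580 was set against SB203580 alone in wild type MEFs, and TNFα in p38α-/- MEFs was set against untreated p38α-/- MEFs. For SB203580 the protocols give 10 μM for 30 min before the stress, whereas the sample titles give 10 mM and 2 h. The pool is the only control for wild type MEFs with TNFα alone, so its own spread is left out of that test, and a constant dye bias stays in it. Both cancel in the comparisons between groups of arrays.

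TNFα binds receptors that recruit the adaptors TRADD and TRAF2 and the kinase RIPK1, and this complex activates the IKK kinases and, through TAK1, the JNK and p38 kinases. IKK marks the inhibitor IκBα for degradation, which frees the transcription factor NF-κB to enter the nucleus. The first transcripts to appear in fibroblasts encode chemokines, adhesion molecules and the pathway's own inhibitors, beside the immediate early genes that most stimuli of growth or stress induce. Many of these transcripts are short-lived, and their decay is itself under the control of p38.

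On the TNFα arrays 94.8% and 94.5% of probes were well above background in Cy5, and 97.5% and 97.3% in Cy3. The image software marked as outliers 7.26% of the spots of the first array and 35.8% of those of the second (range over all arrays 6.78% to 44.8%). Those spots were left out, and 15379 of 21689 genes were then measured on both arrays. The marks removed 29.1% of all genes but 57.1% of a list of NF-κB subunits and inhibitors and 43.3% of a list of immediate early genes, so the counts of each list are also given with these spots kept. Across genes, which are not independent replicates, the log2 ratios of both arrays had a Pearson's r of 0.58, or 0.67 with the spots kept. All 10 fibroblast markers, among them Col1a1, Vim and Pdgfra, exceeded background clearly on each array, with log2 ratios between -0.46 and 0.44. The 8 macrophage and blood cell, 6 epithelial and 6 endothelial markers were well above background at their best probe too, as most probes were. Some probes of Ptprc were not. Their log2 ratios lay between -0.60 and 0.38, and none of the markers was called. The median Cy5 signal on each array was 16200 and 24500 for fibroblast markers. It was 1090 and 2000 for macrophage and blood cell, 3690 and 7970 for epithelial, and 1260 and 1480 for endothelial markers. In such bulk RNA, more cells with a transcript and more of it per cell cannot be told apart. Mapk14, which encodes p38α, had log2 ratios of 0.34 and 0.029 with TNFα in wild type MEFs, with the spots kept. In p38α-/- MEFs it had -0.94 and -1.98 without treatment and -1.14 and -1.13 with TNFα.

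A gene was called when limma, fitted to all 30 arrays with Benjamini-Hochberg adjustment over the genes tested, gave an adjusted p under 0.05 and both arrays lay at least 1 log2 unit on the same side of the pool. By this rule 75 genes (0.488% of 15379) were higher and 57 (0.371%) were lower than the pool. With the outlier spots kept, 92 genes (0.424% of 21689) were higher and 111 (0.512%) were lower. The split between higher and lower therefore turned with the treatment of these spots, and it was 58 to 28 with normexp background correction and loess, 98 to 87 in the authors' table and 66 to 93 with the brightest probe of each gene. The median log2 ratio of all genes was 0.0037. A limma fit to the TNFα arrays alone, without the spread of the other groups, called 0 of 15379 genes, with 3434 at an unadjusted p under 0.05.

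**Figure D1:**
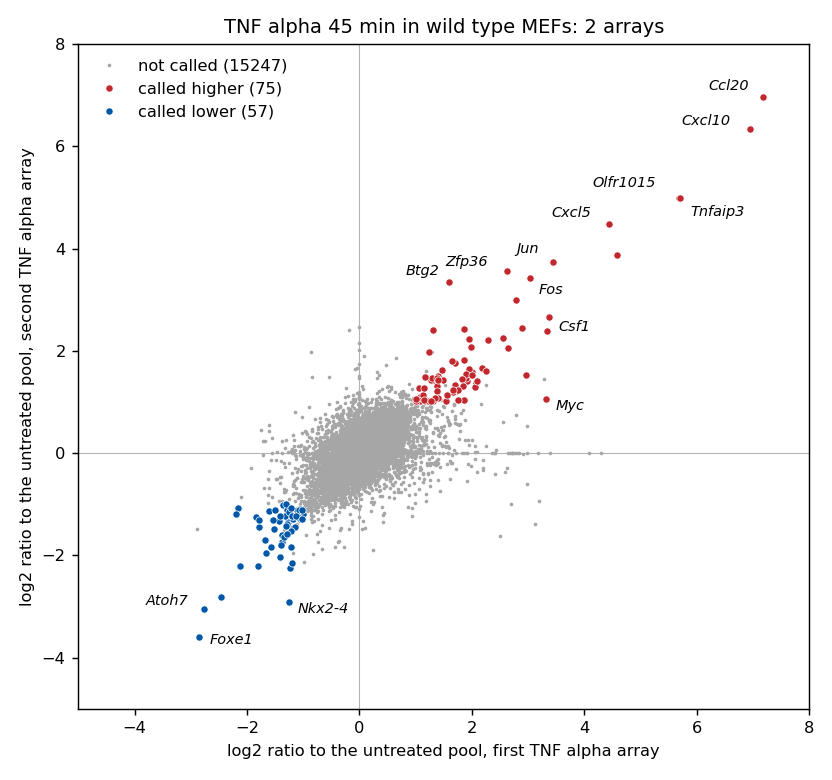
Log2 ratio of each gene to the untreated pool on the first (x axis) and second (y axis) TNFα array, for the 15379 genes measured on both. The 75 genes called higher spread out along the diagonal up to Ccl20 at 7.18 and 6.96, while the 57 called lower stay close to the cloud apart from Foxe1, Atoh7 and 4930467D21Rik.

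The chemokines stood at the top. Ccl20, which attracts cells with the receptor CCR6, had log2 ratios of 7.18 and 6.96 with TNFα, a mean of 7.07 ± 0.15 (SD, n = 2, adjusted p = 2.97e-09 from limma). Cxcl10, a ligand of CXCR3, had 6.94 and 6.34, a mean of 6.64 ± 0.43 (SD, n = 2, adjusted p = 8.92e-09 from limma). For both genes each TNFα array lay far above every array of NaCl, anisomycin, SB203580 alone and untreated p38α-/- MEFs, of which the highest was 1.76 for Ccl20 and 2.71 for Cxcl10. Cxcl5, which attracts neutrophils, had 4.44 and 4.47. The pool was not well above background at its probe on either array, so Cxcl5 is given as at least 14.2-fold higher. The neutrophil chemokine Cxcl3 (Gm1960 in the array files) had 2.05 and 1.29, adjusted p = 0.0053 from limma. Of 15 CXC chemokines on the array 12 were tested, and these 3 were higher and none was lower, with a median of 0.21. With the spots kept 4 of 15 were higher and none was lower. Beside this and every later list count stand the shares over all genes tested. These were 0.488% higher and 0.371% lower, or 0.424% and 0.512% with the spots kept.

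The spots of further chemokines were marked as outliers, and with these spots kept they were in the same range. Ccl2, the main attractant of monocytes, had 4.29 and 3.51, a mean of 3.90 ± 0.56 (SD, n = 2, adjusted p = 8.53e-12 from limma). Its relative Ccl7 had 4.10 and 3.20, and the neutrophil attractant Cxcl1 had 3.27 and 2.44. The TNFα arrays of these 3 genes were above every array of NaCl, anisomycin, SB203580 alone and untreated p38α-/- MEFs, where their highest value was 0.65. Of 19 CC chemokines 14 were tested, Ccl20 was higher and none was lower (median -0.038), and with the spots kept 3 of 19 were higher. Cxcl2 had 2.15 and 0.95 and was not called.

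The promoters of 3 of these chemokines, and of Tnfaip3 and Nfkbia described below, are printed because each holds a match to the NF-κB consensus. They come from RefSeq on GRCm38.p6 and run from 250 bases before to 50 bases after the start of the gene, 5′ to 3′ on the gene's own strand. Capitals mark matches to the NF-κB consensus on either strand, merged where they overlap.
Ccl20 (chr1:83116516-83116815, plus strand): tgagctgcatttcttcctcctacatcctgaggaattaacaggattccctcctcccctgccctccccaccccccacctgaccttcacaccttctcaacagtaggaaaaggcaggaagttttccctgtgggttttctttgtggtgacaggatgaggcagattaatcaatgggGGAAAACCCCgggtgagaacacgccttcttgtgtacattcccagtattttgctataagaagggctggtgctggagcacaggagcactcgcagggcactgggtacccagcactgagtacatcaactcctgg
Cxcl10 (chr5:92348840-92349139, minus strand): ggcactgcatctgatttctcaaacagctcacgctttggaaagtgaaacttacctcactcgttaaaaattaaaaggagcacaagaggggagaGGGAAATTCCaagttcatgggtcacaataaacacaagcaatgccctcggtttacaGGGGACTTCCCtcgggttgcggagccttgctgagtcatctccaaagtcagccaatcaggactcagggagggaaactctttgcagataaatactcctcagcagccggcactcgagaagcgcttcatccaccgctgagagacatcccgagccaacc
Cxcl1 (chr5:90890995-90891294, plus strand): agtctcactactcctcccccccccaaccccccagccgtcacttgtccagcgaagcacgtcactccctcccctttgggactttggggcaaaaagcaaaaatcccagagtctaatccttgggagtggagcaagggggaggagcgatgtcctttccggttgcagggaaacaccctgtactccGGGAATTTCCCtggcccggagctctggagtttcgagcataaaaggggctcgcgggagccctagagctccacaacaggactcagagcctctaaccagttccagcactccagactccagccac
Tnfaip3 (chr10:19015361-19015660, minus strand): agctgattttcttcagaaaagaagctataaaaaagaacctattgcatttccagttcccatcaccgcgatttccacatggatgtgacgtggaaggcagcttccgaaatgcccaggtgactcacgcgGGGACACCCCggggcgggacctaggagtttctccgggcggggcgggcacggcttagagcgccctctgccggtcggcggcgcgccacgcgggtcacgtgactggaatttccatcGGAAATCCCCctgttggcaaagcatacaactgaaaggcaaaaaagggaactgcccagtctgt
Nfkbia (chr12:55492598-55492897, minus strand): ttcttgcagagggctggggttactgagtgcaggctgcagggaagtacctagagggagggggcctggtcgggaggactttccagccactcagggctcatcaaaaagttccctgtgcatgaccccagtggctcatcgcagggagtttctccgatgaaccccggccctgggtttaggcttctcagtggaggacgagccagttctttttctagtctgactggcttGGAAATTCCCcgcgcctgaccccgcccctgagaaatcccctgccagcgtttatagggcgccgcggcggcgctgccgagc
In Ccl20 the match began 80 bases before the start, in Cxcl1 71, in Nfkbia 29, in Cxcl10 159 and 104, and in Tnfaip3 125 and 12. A further Tnfaip3 window, at another start of the gene, held no match and is not printed. The consensus was found in 28.6% of the 56 windows of 49 genes higher than the pool for which the table holds a window, in 5.77% of the 52 windows of the lower genes, and in 8.46% of all 32851 windows. TGAGTCA, the AP-1 site, was found in 10.7% of the windows of higher genes and in 5.20% of all windows, and TGACGTCA, the cAMP response element, in 7.14% and 1.79%. The CArG box was found in 1.79% and 1.63%. Both strands were searched for each motif, none of which contains another, and a match describes the sequence alone.

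Among the genes of the NF-κB feedback, Tnfaip3 encodes A20, a ubiquitin-editing enzyme that shuts off the receptor complex. It had log2 ratios of 5.69 and 4.98 with TNFα, against 0.99 and 0.37 with NaCl and 1.29 and 0.81 with anisomycin, and the groups did not overlap. Its mean of 5.34 ± 0.50 (SD, n = 2, adjusted p = 7.56e-10 from limma) had the smallest p-value of the genes called with outlier spots left out. The probe named Olfr1015, an olfactory receptor gene, had 5.69 and 4.99. On the other arrays Olfr1015 stayed near Tnfaip3 as well, at 1.60 and 0.23 with NaCl, 1.42 and 0.72 with anisomycin, 5.18 and 4.21 with SB203580 and TNFα, and 4.69 and 4.00 with TNFα in p38α-/- MEFs. Nfkbiz encodes IκBζ, a nuclear cofactor of NF-κB, and with the outlier spots kept it had 3.40 and 3.43, against 0.99 and 0.67 with NaCl.

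Nfkbia, which encodes the inhibitor IκBα, differed from the genes above in how far it stood from the pool. With the outlier spots kept it had log2 ratios of 0.65 and 0.67, which missed the 1 log2 unit of the rule (adjusted p = 0.000328 from limma). All 8 arrays of NaCl, anisomycin, SB203580 alone and untreated p38α-/- MEFs lay below the pool, between -0.82 and -0.26. Against NaCl, which has the same time and the same pool, Nfkbia was higher by 1.06 (standard error 0.15, adjusted p = 0.00172 from limma). The NF-κB subunits were not called with the spots kept: Nfkb1 had 1.42 and 0.82, Rela 0.13 and 0.11, Relb 0.34 and -0.29 and Nfkb2 -0.63 and -0.85. Of the 14 subunits and inhibitors on the array 6 were tested and Tnfaip3 was higher, with a median of 0.34, and 2 of 14 were higher with the spots kept.

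Among 23 receptors and proximal adaptors 16 were tested, 2 were higher and none was lower, with a median of 0.10. The same 2 of 23 were higher with the outlier spots kept and 1 was lower, the adaptor gene Traf5, at -1.16 and -1.29. Traf5 was below the pool by at least 1 log2 unit on every array of NaCl, anisomycin, SB203580 alone and untreated p38α-/- MEFs as well. Ripk2, a kinase that relays signals to IKK, had 1.76 and 1.04 with TNFα, and between -0.49 and 0.12 on the 8 arrays of NaCl, anisomycin, SB203580 alone and untreated p38α-/- MEFs. Map3k8, the kinase TPL2 upstream of ERK, had 1.99 and 2.07, against -0.43 and 0.10 with anisomycin and 0.65 and 0.89 with NaCl. The TNF receptor gene Tnfrsf1a had 0.13 and 0.059 and Ikbkb, which encodes an IKK kinase, 0.31 and -0.09, neither of them called.

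Of the lists by function, adhesion molecules and inflammatory effectors had the most genes called after the immediate early genes. They were 6 of 20 tested of 24 on the array, none lower, with a median of 0.84. With the outlier spots kept they were 7 of 24, again none lower. Sele, which encodes the leukocyte receptor E-selectin, had 2.29 and 2.20, against 0.12 and 0.19 with NaCl. Edn1, the precursor of the vasoconstrictor endothelin-1, had 1.94 and 2.22 but overlapped NaCl at 2.16 and 1.84. F3, the tissue factor that starts coagulation, had 1.70 and 1.34 and overlapped anisomycin at 1.67 and 0.80. Gch1, the entry enzyme of tetrahydrobiopterin synthesis, rested partly on a probe at which the pool was not well above background, and that probe was at least 4.30-fold higher. Pde4b, a cAMP phosphodiesterase, was the gene nearest to the threshold at 1.00 and 1.05, and was not called at 0.93 and 0.59 with the spots kept.

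Vcam1, an adhesion receptor for leukocytes, had 2.78 and 2.31 with the outlier spots kept, and between -0.24 and 0.28 on the arrays of NaCl, anisomycin, SB203580 alone and untreated p38α-/- MEFs. Ptx3, which encodes the soluble pattern receptor pentraxin 3, had 2.26 and 1.72 with the spots kept, but overlapped untreated p38α-/- MEFs at 1.88 and 0.29. Icam1, a relative of Vcam1, had 0.73 and 0.29 and was not called. Beyond the lists, Ch25h, which makes 25-hydroxycholesterol, had 2.25 and 1.60, and no other array of those groups exceeded 0.058. Olr1, a receptor for oxidised lipoproteins, had 2.89 and 2.44 against 1.54 and 1.03 with anisomycin. Slc9a3 had 3.34 and 2.38 at a probe where the pool was not well above background (at least 2.84-fold higher). On the second array the TNFα sample was not well above background there either, so this bound rests partly on a dim signal. The other probe of Slc9a3, left out as an outlier, had -0.067 and -0.39.

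Of the lists by function, that of immediate early genes, mostly transcription factors, had the most genes called. They were 7 of 17 tested of 30 on the array and none lower, with a median of 0.85, and 14 of 30 with the outlier spots kept. In contrast to the chemokines, several of them were as high or higher in other groups. Jun had 3.43 and 3.74 with TNFα, a mean of 3.58 ± 0.21 (SD, n = 2, adjusted p = 9.45e-09 from limma). It had 3.02 and 2.35 with NaCl, 6.21 and 5.85 with anisomycin, and 2.05 and 1.64 with SB203580 alone. Jun is a subunit of AP-1, as is Fos, which had 3.03 and 3.42 with TNFα and overlapped NaCl at 3.40 and 2.82. Fos also stood above the pool in the arrays of SB203580 alone, at 2.40 and 2.25. The zinc finger factor Egr1 had 2.78 and 3.0 with TNFα and 4.95 and 4.48 with anisomycin.

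Btg2, an antiproliferative gene, had 1.58 on the first array from 3 probes and 3.35 on the second from the 1 probe that was left, and 1.58 and 1.96 with the outlier spots kept. Myc had 3.33 and 1.06, and a further probe of the gene, left out as an outlier, had -0.18 and -0.34. With the spots kept, Irf1, which activates antiviral and antigen presentation genes, had 2.17 and 1.67, the mean of a probe at 4.50 and 3.80 and a probe at -0.16 and -0.46. Junb had 1.54 and 1.35, likewise from a probe at 2.83 and 2.58 and a probe at 0.24 and 0.12. The probes of these genes thus differed by more than the arrays did.

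Of 17 MAP kinase phosphatases and mRNA decay factors 12 were tested and 4 were higher and none lower, with a median of 0.64, and 5 of 17 were higher and none lower with the outlier spots kept. Zfp36, which encodes tristetraprolin and speeds the decay of cytokine mRNAs, had 2.62 and 3.56, above NaCl at 1.41 and 1.38 and below the measured anisomycin array at 4.08. Its relative Zfp36l1 had 1.65 and 1.80, just above anisomycin at 1.40 and 1.64. Gadd45b, a stress gene induced by NF-κB, had 1.90 and 1.54, above all arrays of NaCl and anisomycin, which lay between 0.90 and 0.99. Dusp8, a phosphatase of JNK and p38, had 1.91 and 1.40, below anisomycin at 2.48 and 2.15. Dusp1, which acts on the same kinases, had 1.39 and 1.67 with the spots kept and was below both NaCl (2.66 and 2.02) and anisomycin (5.06 and 4.66).

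**Figure D2:**
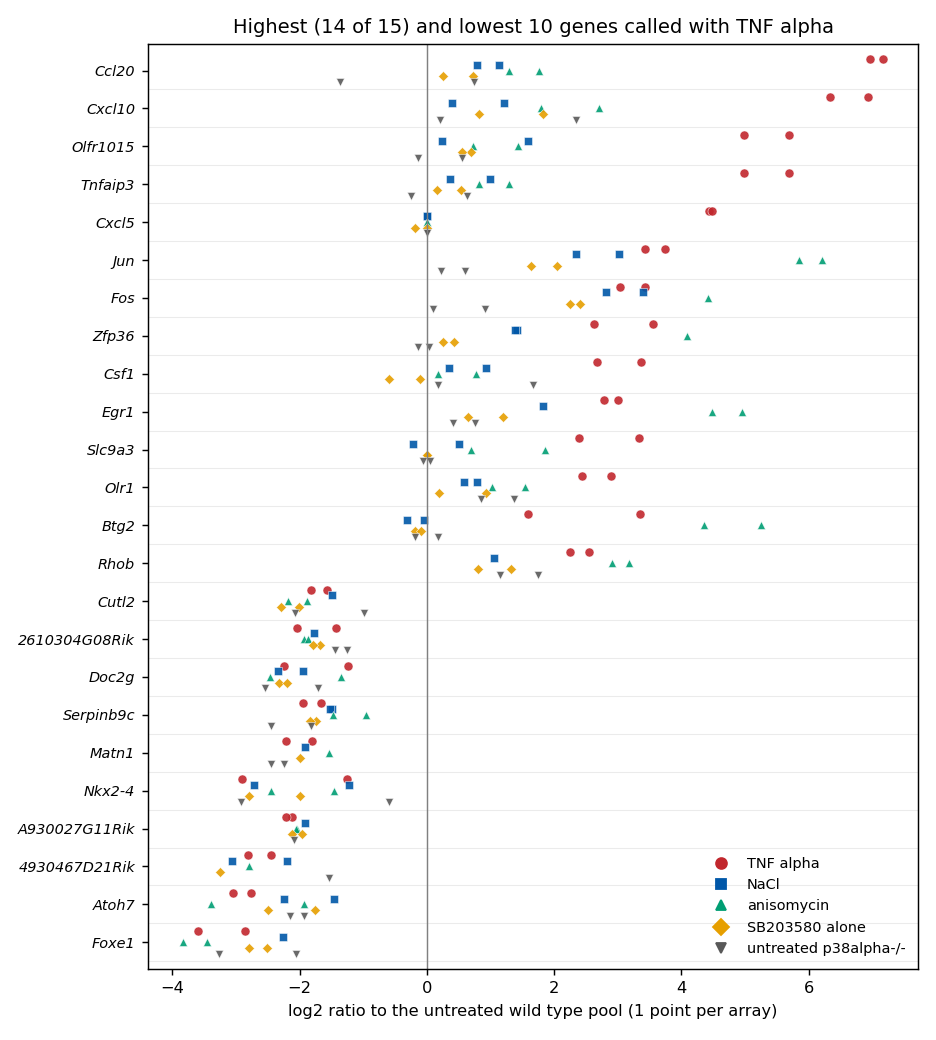
Log2 ratio to the untreated wild type pool (x axis) of 14 of the 15 highest and the 10 lowest genes called with TNFα (y axis), 1 point per array, for TNFα, NaCl, anisomycin, SB203580 alone and untreated p38α-/- MEFs. The TNFα points of Ccl20, Cxcl10, Tnfaip3 and Cxcl5 stand apart from all others, those of Jun, Zfp36, Egr1 and Btg2 lie below anisomycin, and those of the 10 lowest genes lie among the other groups.

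The counts of the remaining lists are read beside the same share over all genes tested, 0.488% higher. Among 25 cytokines and growth factors 18 were tested and 3 were higher and none lower, with a median of 0.16, and the same 3 of 25 were higher with the outlier spots kept. Csf1, the macrophage growth factor, had 3.37 and 2.67, above every array of NaCl, anisomycin, SB203580 alone and untreated p38α-/- MEFs. Tslp, a cytokine that acts on dendritic cells, had 1.66 and 1.24. Spp1, which encodes osteopontin, had 1.48 and 1.43 and was below the first untreated p38α-/- array at 1.93. Il6 had -0.20 and -0.27 and was not called.

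Of 10 survival and apoptosis genes 7 were tested and 1 was higher (median 0.061), namely Pmaip1, the BH3-only protein NOXA, at 1.86 and 1.82 against 1.70 and 1.50 with anisomycin. Of 16 interferon-stimulated genes 12 were tested and none was called (median 0.031), and none was called with the spots kept. At the share over all genes a list this short would mostly hold none either. With the spots kept Pmaip1 was still the 1 gene called of the 10 survival and apoptosis genes. Of 12 genes of MHC class I and antigen processing 8 were tested and 2 were higher (median 0.44), the same 2 of 12 with the spots kept. Of 9 reference transcripts 4 were tested and none was called (median 0.49). This median lay above those of the CXC chemokines (0.21), the NF-κB subunits and inhibitors (0.34) and the MHC list (0.44). A list median above 0 is therefore not read as a TNFα response. With the spots kept 1 of the 9 reference transcripts was lower, Eef2, which encodes an elongation factor of translation, at -1.27 and -1.39. Eef2 was below the pool on every array of NaCl, anisomycin, SB203580 alone and untreated p38α-/- MEFs too, between -1.97 and -1.12. H2-K1, a class I heavy chain, had 2.09 and 1.41 with TNFα but 2.15 and 1.78 in untreated p38α-/- MEFs. B2m, its light chain, had 1.08 and 1.10 with TNFα and 1.52 and 1.01 with SB203580 alone, and the ribosomal protein gene Rpl39 had 1.15 and 1.27 with TNFα and 1.09 and 1.66 with NaCl. H2-K1, B2m and Rpl39 were above the pool on every measured array of the groups named, whether or not TNFα was given.

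The 10 lowest genes were likewise below the pool on every measured array of these groups, with and without TNFα. Foxe1, a forkhead factor of the thyroid, had -2.86 and -3.60 with TNFα, where its signal was not well above background and the pool was at least 6.88-fold higher. It had -3.46 and -3.84 with anisomycin, where its signal was not well above background on either array. With SB203580 alone Foxe1 had -2.52 and -2.79, and its signal was dim on the first array. Atoh7, a retinal helix-loop-helix factor, had -2.77 and -3.05 (pool at least 4.16-fold higher). With SB203580 alone it had -1.75 and -2.50, again not well above background on either array. The size of these low ratios is therefore uncertain. Matn1, which encodes the cartilage protein matrilin-1, had -1.81 and -2.21, against -2.45 and -2.25 in untreated p38α-/- MEFs. The other 7 of the 10 lowest genes, namely 4930467D21Rik, A930027G11Rik, Nkx2-4, Serpinb9c, Doc2g, 2610304G08Rik and Cutl2 (now Cux2), had means between -2.63 and -1.70. For Nkx2-4 and Doc2g 1 of 2 probes was near the pool, at 0.07 and -0.11 on the first array.

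The values ran without a gap across the threshold of 1 log2 unit. Just inside it, Aof1 (now Kdm1b) had 1.07 and 1.01 and Ifnar2 1.21 and 1.01, and just outside it Chrm3 had 1.86 and 0.997. On the lower side Fn3k with -1.01 and -1.19 was inside and Zfp609 with -1.06 and -0.999 was outside.

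TNFα was next compared with NaCl at the same time, where the pool and a constant dye bias cancel. This comparison uses the same TNFα arrays, so it is no independent count of the genes called against the pool. Of 12353 genes 23 (0.186%) were higher and 3 (0.0243%) were lower with TNFα by a difference of at least 1 log2 unit with a limma adjusted p under 0.05. With the outlier spots kept 38 (0.175% of 21689) were higher and 4 (0.0184%) were lower. Without the first TNFα array 10 genes were higher and none lower, and without the first NaCl array 14 were higher and 8 lower. With the replicate number as a block 35 were higher. The largest differences were those of Ccl20, by 6.11 (standard error 0.55, adjusted p = 8.82e-06 from limma), Cxcl10, by 5.84, Tnfaip3, by 4.66, and Olfr1015, by 4.43. Cxcl5 was called as well, but no size is given for it, since on both NaCl arrays it had 0.00, the value the software gives when both channels are dim. Ripk2, Olr1, Ch25h, Zfp36 and Btg2 were also higher, by 1.53 to 2.65, whereas Sele missed the threshold at 2.09 (adjusted p = 0.0599 from limma) and Csf1 at 2.38 (adjusted p = 0.193 from limma).

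Of the 75 genes higher than the pool 65 were tested against NaCl, and 14 of them were called higher and none lower, with a median difference of 1.02 against -0.011 over all genes. Of the 57 lower genes 32 were tested and 1 was called, C130098D09, with a median of -0.19. C130098D09 (now Ccdc60) had -1.29 and -1.12 with TNFα, where it was not well above background, and 0.00 on both NaCl arrays. The histone genes Hist2h2ac and Hist1h2ai were higher with TNFα than with NaCl although they were not called against the pool. Hist2h2ac (now H2ac20) had -0.11 and -0.33 with TNFα and -2.15 and -1.53 with NaCl. Hist1h2ai (now H2ac13) had -0.73 and -1.02 against -2.58 and -2.16. Lowest with TNFα was 1500002I01Rik, at -0.38 and 0.00 against 2.44 and 2.79 with NaCl. At a probe of this gene the TNFα sample was not well above background on either array. On the second NaCl array neither channel was well above background at that probe. These histone genes were named after their values were seen.

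Against anisomycin, 10 of 14192 genes (0.0705%) were higher and 13 (0.0916%) were lower with TNFα, and 20 (0.0922% of 21689) and 18 (0.083%) with the outlier spots kept. Without the first TNFα array 7 were higher and 6 lower, and without the second 16 were higher and 10 lower. With the replicate number as a block 21 were lower. The 10 higher genes, all of them called against the pool, included Ccl20, Cxcl5, Cxcl10, Tnfaip3, Olfr1015, Map3k8, Ch25h, Ripk2 and 8430408G22Rik (now Depp1). Ccl20 was higher by 5.54 (standard error 0.55, limma adjusted p = 4.67e-05) and Map3k8 by 2.20 (standard error 0.34, limma adjusted p = 0.00455). Depp1, a gene that FoxO factors induce, had 1.99 and 1.58 with TNFα and -0.084 and 0.00 with anisomycin.

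The genes lower with TNFα than with anisomycin included immediate early genes that TNFα itself raised over the pool. Jun differed by -2.44 (standard error 0.31, limma adjusted p = 0.000509) and Btg2 by -2.34 (standard error 0.38, limma adjusted p = 0.00573). With the outlier spots kept, Dusp1 differed by -3.33 (standard error 0.26, limma adjusted p = 7.64e-07) and Atf3, a stress-induced repressor, by -1.88 (standard error 0.26, limma adjusted p = 0.000804), with 2.02 and 1.33 against 3.75 and 3.37. Chka, which encodes choline kinase, had 0.28 and -0.26 with TNFα against 1.93 and 1.27 with anisomycin. The TNFα arrays that chose the 75 higher genes also enter this comparison, in which 71 of them were tested, with 10 called higher and 2 lower and a median of 0.61 against 0.0044 over all genes. Of the 57 lower genes 45 were tested, 1 was called lower, again C130098D09, and the median was 0.057.

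Whether the same genes moved with TNFα was read from both remaining comparisons. Their arrays did not enter the mean that was tested against the pool. They did enter the spread of each gene, which came from the same fit to all arrays. A gene with a small spread is favoured in every comparison, so an overlap between their calls is not independent support. After SB203580, TNFα raised 13 of 14242 genes (0.0913%) over SB203580 alone and lowered none (0.0%), while 639 had an unadjusted p under 0.05 from limma in either direction. In p38α-/- MEFs, TNFα raised 12 of 15386 genes (0.078%) and lowered none (0.0%), with 466 at an unadjusted p under 0.05. With the outlier spots kept the numbers were 27 (0.124%) and 23 (0.106%), and again no gene was lower. Without the second array of SB203580 alone, 36 genes were called. The second TNFα array of p38α-/- MEFs was scanned in a batch of its own, and the number called there was 17 without it and 22 with the scanning batch as a block. Of the 75 genes higher than the pool, 68 were tested and 11 were called with SB203580, with a median of 0.59 against 0.00077 over all genes. In p38α-/- MEFs 68 were tested and 9 were called, with a median of 0.58 against -0.021.

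The genes called in both comparisons were 10, among them Ccl20, Ccl7, Cxcl10, Gadd45b, Jun, Nfkbiz, Olfr1015, Tnfaip3 and Zfp36, of which 8 belonged to the 75 and the other two, Ccl7 and Nfkbiz, were not measured on both TNFα arrays. With the outlier spots kept they were 21, and 20 of them were among the 92 genes higher than the pool, 95.2% of the 21 and 21.7% of the 92. The further genes were Btg2, Ccl2, Cxcl1, Ier3, Irf1, Itgb1bp3 (now Nmrk2), Junb, Phlda1, Tnfaip2, Vcam1 and Nfkbia, and Nfkbia was the 1 gene that had missed the rule against the pool. For these 21 genes the promoter table holds 17 windows, of which 47.1% have a match to the NF-κB consensus.

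Ccl20 had 6.21 and 5.11 with SB203580 and TNFα against 0.72 and 0.26 with SB203580 alone, a difference of 5.17 (standard error 0.55, adjusted p = 9.24e-05 from limma). In p38α-/- MEFs it had 6.18 and 5.72 against 0.75 and -1.37, a difference of 6.26 (standard error 0.55, adjusted p = 7.39e-06 from limma). In both comparisons the TNFα arrays lay above their controls. Tnfaip3 differed by 4.38 with SB203580 and by 4.24 in p38α-/- MEFs, Jun by 2.19 and 2.61, and Gadd45b by 1.71 and 1.87, all called. Nfkbia, with the outlier spots kept, had 0.72 and 0.66 against -0.72 and -0.82 with SB203580, and 0.43 and 0.56 against -0.63 and -0.57 in p38α-/- MEFs, differences of 1.46 (limma adjusted p = 5.22e-05) and 1.10 (limma adjusted p = 0.00122). Tnfaip2, a gene first found as induced by TNFα, had 2.29 and 1.95 against 0.92 and 0.29 with SB203580, and 1.66 and 1.93 against 0.34 and 0.18 in p38α-/- MEFs.

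**Figure D3:**
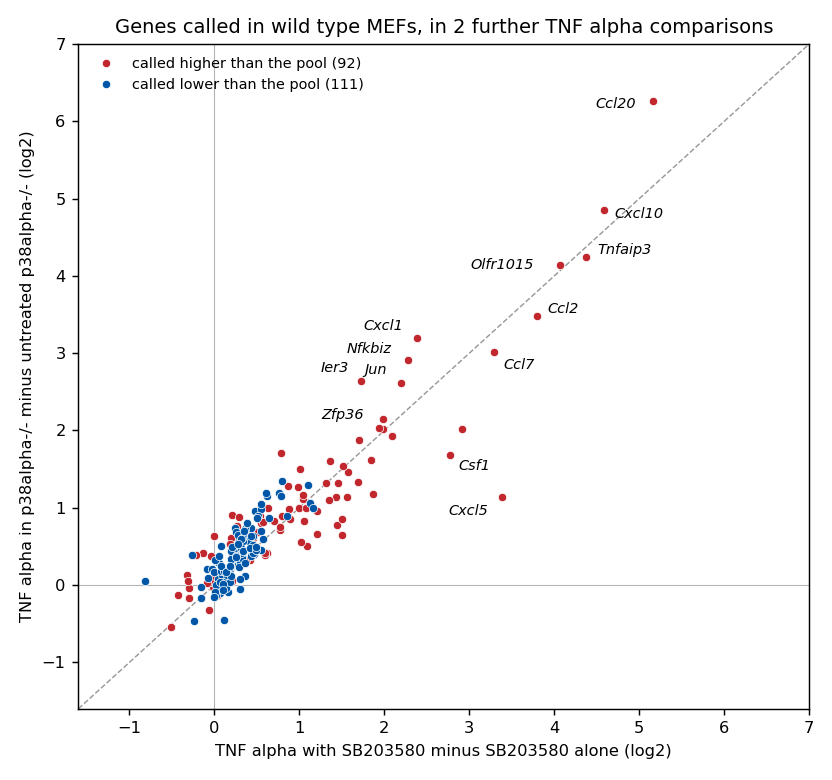
Difference in log2 ratio made by TNFα after SB203580 (x axis) and in p38α-/- MEFs (y axis) for the 92 genes higher and the 111 genes lower than the pool with TNFα in wild type MEFs, outlier spots kept. Red points extend to 5.17 and 6.26 for Ccl20, the signal of Cxcl5 was not well above background in p38α-/- MEFs, and the blue points lie around 0 with medians of 0.285 and 0.38.

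Other genes of the 75 were not called on these arrays. B2m differed by -0.088 with SB203580 and by 0.022 in p38α-/- MEFs, and Rpl39 by 0.076 and -0.036. Cxcl3 had 2.05 and 1.29 over the pool but differed by -0.013 and -0.023. Fos differed by 0.78 and 1.72, and Ch25h by 0.78 and 0.72, with adjusted p from limma between 0.327 and 1. Of the 57 lower genes 43 were tested with SB203580 and 39 in p38α-/- MEFs, none was called in limma in either direction, and their medians were 0.18 and 0.24, on the other side of 0.

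Cxcl5 was well above background on both arrays of SB203580 and TNFα, at 3.59 and 3.0, but on neither array of p38α-/- MEFs with TNFα, so no difference of its effects is given. For Ccl20 the effect with SB203580 minus that in p38α-/- MEFs was -1.10 (95% interval -2.72 to 0.53), for Cxcl10 -0.26 (-1.93 to 1.40), for Tnfaip3 0.14 (-0.88 to 1.15) and for Jun -0.42 (-1.33 to 0.50). Over 13150 genes no difference between these effects was called by limma (0.0%), and 159 had an unadjusted p under 0.05. The interval of Cxcl10 spans more than 2-fold in either direction. With 1 array left out the number of genes called lay between 0 and 5, the highest without the first array of SB203580 and TNFα.

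**Figure D4:**
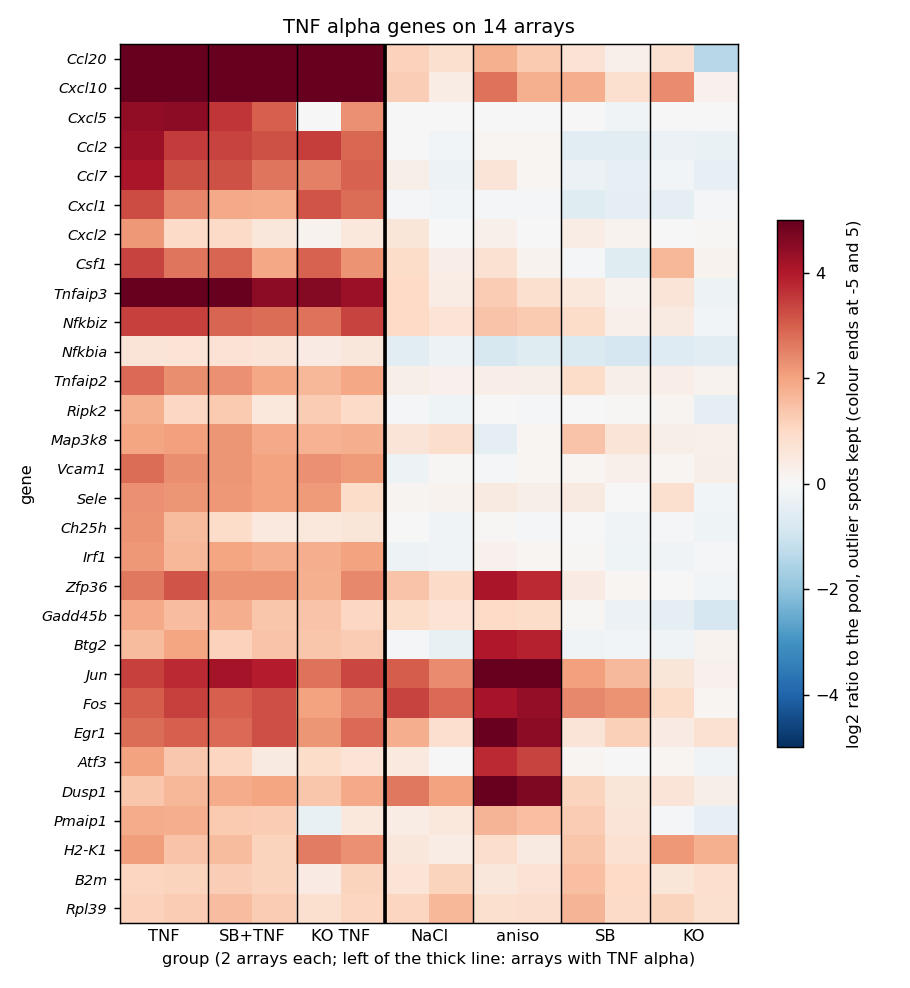
Log2 ratio to the pool (colour, from -5 to 5) of 30 genes (y axis) on 14 arrays (x axis, 2 per group), outlier spots kept. Tnfaip3, Nfkbiz, Vcam1, Irf1 and the chemokines drawn other than Cxcl2 are darkest on the 6 arrays with TNFα, apart from Cxcl5 at 0.00 on the first array of p38α-/- MEFs with TNFα, the early genes Jun, Fos, Egr1 and Dusp1 are darkest with anisomycin, and H2-K1, B2m and Rpl39 are above the pool with and without TNFα.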

How the data were processed

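The members and gene lists were chosen with earlier results of these data known. The deposited scanner files, made by the authors with Feature Extraction (8.1.1.1 per the file headers, 9.1 per the submitters' processing notes), hold spot intensities and the log10 ratio of Cy5 to Cy3. Both dyes had been balanced on each array by linear and LOWESS normalization, dim signals carry a surrogate value, and no local background was subtracted. A series matrix that the authors deposited on the log2 scale was an alternative. Its normalization is not given in the sources used here, its medians on the TNFα arrays are 0 and -0.03, and it correlated with the scanner ratios at 0.8 and 0.911.

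Ratios were converted to log2. Control spots and spots marked as outliers were removed, and the 33453 of 41174 probes that carry a gene name were averaged within each array, giving 21689 genes under the names of the array design. Newer symbols came from RefSeq (GRCm38.p6), for 15739 genes by accession, 2277 by synonym and 1933 by symbol. limma 3.58.1 (R 4.3.3) fitted 1 mean to each of 15 groups on 30 arrays, with empirical Bayes moderation and Benjamini-Hochberg adjustment over the genes tested, and the code was tested on simulated data. The test against the pool is that of the ratio against 0. Tables and figures were made in Python 3.11.15 (numpy 2.4.6; pandas 2.3.3; matplotlib 3.10.9; scipy 1.17.1). Where neither TNFα array read a probe well above background in a channel, a bound is given for the fold change. It comes from the higher of the lowest signal well above background and the probe's own. Log2 ratios of dim probes in the other groups are printed without a bound. Precision is limited by the number of arrays, 2 in a group. In the main fits a p-value measures the spread within groups, pooled over all 15, and not that between the TNFα arrays alone.

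Named were the 15 highest and 10 lowest genes called against the pool, members of the lists, and the 5 largest differences in either direction of each other comparison. The rest were named after their values were seen, namely Ch25h, Depp1, Tnfaip2, Phlda1, Rpl39, Nmrk2, the histone genes and the genes next to the threshold. Of the highest genes 1 is not reported here, but the counts and medians include it. To see whether replicate numbers pair arrays, the difference between the replicates of a group was correlated across genes with that of every other group. The correlation exceeded 0.1 for all 55 pairs among wild type groups (median 0.458) and for all 6 among p38α-/- groups (median 0.246), but for only 6 of 44 pairs across genotypes. Numbers were therefore taken to pair arrays inside a genotype. They follow the scanning batches there, except that the second TNFα array of p38α-/- MEFs was alone in its batch. The main fits left this pairing out, and it entered only as a block in the recomputed results. Results were recomputed with normexp (offset 50) and loess, from the series matrix, from the brightest probe, with outlier spots, with spots well above background, with a block for the replicate number or the scanning batch, from the compared arrays alone and without each array.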

Additional observations from a re-analysis of the deposited data

How the results depend on the processing

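Against the pool, 75 genes were higher and 57 lower. The higher genes lay between 58 and 98 under normexp, the series matrix, the brightest probe, outlier spots kept, spots well above background and both blocks. With 1 TNFα array left out the rule rests on the other array alone, so those totals are not compared here. The lower genes numbered 28 with normexp, 87 in the series matrix, 93 with the brightest probe and 111 with outlier spots kept. Of the 75 and 57 genes themselves, normexp called 54 and 26 again, outlier spots kept 67 and 54, the first array left out 52 and 37, and the second left out 57 and 27. In a fit of the TNFα arrays alone 0 and 0 genes were called, with 3434 at an unadjusted p under 0.05 from limma, where 1 degree of freedom per gene is left.

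The replicate number as a block, which pairs the arrays, gave 83 and 61 genes against the pool, all 75 and 57 among them. It moved the genes higher than with NaCl from 23 to 35 and those lower than with anisomycin from 13 to 21, and gave 18 genes with SB203580 and 14 in p38α-/- MEFs. The scanning batch as a block gave 20 genes lower than with anisomycin, 22 called in p38α-/- MEFs and 2 between the effects with SB203580 and in p38α-/- MEFs, where the main number was 0. A batch held 1 array of each wild type group, so no test within a batch was possible.

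For TNFα against NaCl, the 23 higher genes became 43 in the series matrix, 38 with outlier spots kept, 2 with the compared arrays alone and 10 to 27 with an array left out. The 3 lower genes became 0 with normexp, 5 with the brightest probe, 1 with spots well above background, 0 with the compared arrays alone and 0 to 8 with an array left out. For TNFα against anisomycin, the 10 higher genes became 21 in the series matrix, 20 with outlier spots kept, 1 with the compared arrays alone and 7 to 16 with an array left out, and the 13 lower genes 20, 18, 0 and 6 to 11. The 13 genes with SB203580 became 30 in the series matrix, 27 with outlier spots kept, 0 with the compared arrays alone (458 at an unadjusted p under 0.05 from limma) and 11 to 36 with an array left out. The 12 genes in p38α-/- MEFs became 21, 23, 0 (457 at an unadjusted p under 0.05 from limma) and 11 to 17. Between both effects 0 to 5 genes were called with an array left out. The cause of these shifts was not tested, apart from the fits of the compared arrays alone, which hold fewer samples.

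Of the named genes 46 were called, and of 443 values under the alternatives 358 kept direction and call, 85 kept the direction without the call, 46 of these with the TNFα arrays alone, and 0 changed direction. Arrays without a dye swap, a single pool as control and dim signals replaced by a surrogate limit what single ratios near background can show.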
